A study of Mus musculus with 9 samples.

Results

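The cytoplasmic ribosomal proteins were followed across sorted mouse natural killer (NK) cells on 9 Affymetrix arrays. Members were the probe sets that the platform annotation pairs with 1 gene symbol, where that symbol is Rpl or Rps and a digit, Rplp0, Rplp1, Rplp2 or Rpsa, without the S6 kinases (Rps6k) and the pseudogenes. This gave 106 of 45037 probe sets, for 50 of 18193 genes. Of these genes 26 had 1 probe set and 24 had several. The 3 groups were NK cells of NKDxIL15tg bone marrow, NKDxIL15tg spleen and IL15tg spleen, with 3 biological replicates each. The series' design text calls the NKDxIL15tg cells immature and the IL15tg cells mature. All groups carry IL15tg, a transgene for the cytokine IL-15 that keeps NK cells alive, and the labels do not give its promoter or the age of the mice. Every immature array and no mature array comes from the NKD line, so an effect of maturity and one of that genotype cannot be told apart. Bone marrow against IL15tg spleen differs in organ as well.

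Each ribosome has a small subunit, which reads the mRNA, and a large subunit, which joins amino acids, and each subunit is a core of ribosomal RNA clothed in proteins named Rps (small) or Rpl (large). Cells that grow and divide make many ribosomes, and the mRNAs of these proteins are among the most abundant in a lymphocyte. Many of those mRNAs start with a C and a run of pyrimidines, the 5′ terminal oligopyrimidine (TOP) motif, through which mTOR signalling sets how strongly they are translated. An array reads the amount of such an mRNA and not its translation. In mammals each of these genes has many processed pseudogenes, so a short probe can also match copies elsewhere in the genome.

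The starts of the member genes are shown because the TOP motif is a known mark of this gene family. They come from RefSeq's annotated starts on GRCm38.p6, with 15 bases before and 15 after the start. For 44 of the 50 genes, 52 start windows were on hand. A C at the annotated start with 4 more pyrimidines after it stood in 8 of the 52 (15.4%), against 2.51% of 32851 windows of all genes. In the 8 lines below, the capitals mark that run of pyrimidines.
Rps6, chr4:86857353-86857382, minus strand: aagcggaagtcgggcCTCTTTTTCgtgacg
Rps10, chr17:27635230-27635259, minus strand: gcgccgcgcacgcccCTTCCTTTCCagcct
Rps18, chr17:33955651-33955680, minus strand: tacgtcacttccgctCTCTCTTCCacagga
Rps27, chr3:90213634-90213663, minus strand: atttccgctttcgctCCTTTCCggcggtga
Rpl14, chr9:120571502-120571531, plus strand: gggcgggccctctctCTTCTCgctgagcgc
Rpl35, chr2:39005117-39005146, minus strand: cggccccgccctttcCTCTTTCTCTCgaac
Rpl38, chr11:114668565-114668594, plus strand: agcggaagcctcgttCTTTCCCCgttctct
Rplp2, chr7:141447636-141447665, plus strand: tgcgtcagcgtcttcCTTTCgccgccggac
Of these 8 genes, Rps6, Rps10, Rpl14 and Rpl35 rose in a comparison below, Rps18, Rpl38 and Rplp2 were called in none, and Rps27 was not tested. Of all 46 member genes with a tested probe set, 17 had a call in bone marrow against IL15tg spleen. In NKDxIL15tg spleen against IL15tg spleen 9 had a call. A gene with more probe sets has more chances of a call, and a link between the motif and a rise was not tested. Other annotated starts had no such run at that base, as in the next 2 lines, whose genes rose in a comparison below. A start that is off by a few bases in the annotation would miss it.
Rps2, chr17:24720048-24720077, plus strand: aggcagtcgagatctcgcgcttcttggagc
Rplp0, chr5:115559452-115559481, plus strand: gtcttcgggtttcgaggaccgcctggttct

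The 250 bases before the start and the 50 after it were also searched for CCGGAAG on either strand (CTTCCGG on the other), the core that ETS-family factors bind. It stood in 21 of the 52 windows of member genes (40.4%), against 8.86% of all windows, and 6 windows held both motifs. In the 250 bases before the start of Rps6 (chr4:86857368-86857617, minus strand), the match is in capitals.
Rps6 upstream: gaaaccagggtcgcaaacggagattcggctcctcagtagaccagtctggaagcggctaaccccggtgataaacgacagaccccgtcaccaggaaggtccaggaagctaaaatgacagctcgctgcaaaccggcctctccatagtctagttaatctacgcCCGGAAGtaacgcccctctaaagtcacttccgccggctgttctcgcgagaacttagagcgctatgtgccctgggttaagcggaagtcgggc

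Values are the deposited linear intensities, and changes are log2 changes ± standard error (SE) from limma with n = 3 arrays a group. A probe set was tested if its mean log2 intensity reached 5.58 (an intensity of 47.7), and it was called at an adjusted p under 0.05. Median intensity was 56.6 to 59.1 on 8 arrays and 64.9 on NKDxIL15tg bone marrow replicate 3, which also correlated least with its own group (mean rank correlation 0.877, against 0.916 to 0.976 for the others). The NK cell label was set against 14 of 15 NK cell markers that had a probe set. Their summed intensity was 33637 to 36681 in NKDxIL15tg bone marrow, 38820 to 42309 in NKDxIL15tg spleen and 53052 to 55083 in IL15tg spleen. Over 17 of 20 granulocyte and monocyte markers it was 13286 to 35510 in NKDxIL15tg bone marrow, 3945 to 9158 in NKDxIL15tg spleen and 1595 to 1953 in IL15tg spleen, and none was at 0. In bulk RNA, a change in the cells of a type and a change in the RNA of each cell cannot be told apart.

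Across the members, the NKDxIL15tg arrays read higher than the IL15tg arrays by a small amount. For each array, the median deviation of the 95 tested members from their own means over 9 arrays was 0.08, 0.09 and 0.19 log2 in NKDxIL15tg bone marrow, -0.03, 0.08 and -0.01 in NKDxIL15tg spleen, and -0.20, -0.14 and -0.09 in IL15tg spleen. Over all tested probe sets, the same median was 0.057 on NKDxIL15tg bone marrow replicate 3 and -0.043 to -0.001 on the other 8 arrays. In the members' median, all 6 NKDxIL15tg arrays stood above the 3 IL15tg arrays. Summed markers of granulocytes and monocytes, of erythroid cells and of T cells also parted these arrays the same way, those of macrophages and dendritic cells and of NK cells parted them the other way, and those of B cells overlapped. Their part in the result was not tested. Erythroid markers summed to 6066 to 8008 in NKDxIL15tg bone marrow, 8058 to 8728 in NKDxIL15tg spleen and 2056 to 2208 in IL15tg spleen (12 of 16 markers). T cell markers summed to 3892 to 4735 in NKDxIL15tg bone marrow, 4159 to 5484 in NKDxIL15tg spleen and 2323 to 2656 in IL15tg spleen (14 of 14). Of 11 tested T cell markers, 8 were higher and 3 lower in NKDxIL15tg spleen than in IL15tg spleen, and 9 and 2 in bone marrow. In each comparison 2 of the 11 rose (18.2%), against 7.65% of genes in NKDxIL15tg spleen and 11.5% in bone marrow. In bone marrow 1 fell, against 8.7% of genes. Macrophage and dendritic cell markers summed to 2899 to 3245 in NKDxIL15tg bone marrow, 4095 to 4480 in NKDxIL15tg spleen and 8278 to 10869 in IL15tg spleen (19 of 20). A sum weighs the brightest genes most. Of 15 tested macrophage and dendritic cell markers, 7 were higher and 8 lower in NKDxIL15tg spleen than in IL15tg spleen. In bone marrow 3 were higher and 12 lower. Of 14 tested NK cell markers, 3 were higher and 11 lower in NKDxIL15tg spleen, and 2 and 12 in bone marrow.

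A sign of RNA quality moved with the groups too. For Gapdh, the 3′ over the 5′ control probe set as a log2 ratio, which is higher where the 5′ end is lost, stood at 1.87 to 2.33 in NKDxIL15tg bone marrow, 1.62 to 1.87 in NKDxIL15tg spleen and 1.99 to 3.21 in IL15tg spleen. NKDxIL15tg spleen did not overlap IL15tg spleen in it, while bone marrow did. For actin the ratio was 0.93 on bone marrow replicate 3, the array with the highest member median, and 1.49 to 2.73 on the other 8 arrays. The part of these ratios in the results was not tested.

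**Figure D1:**
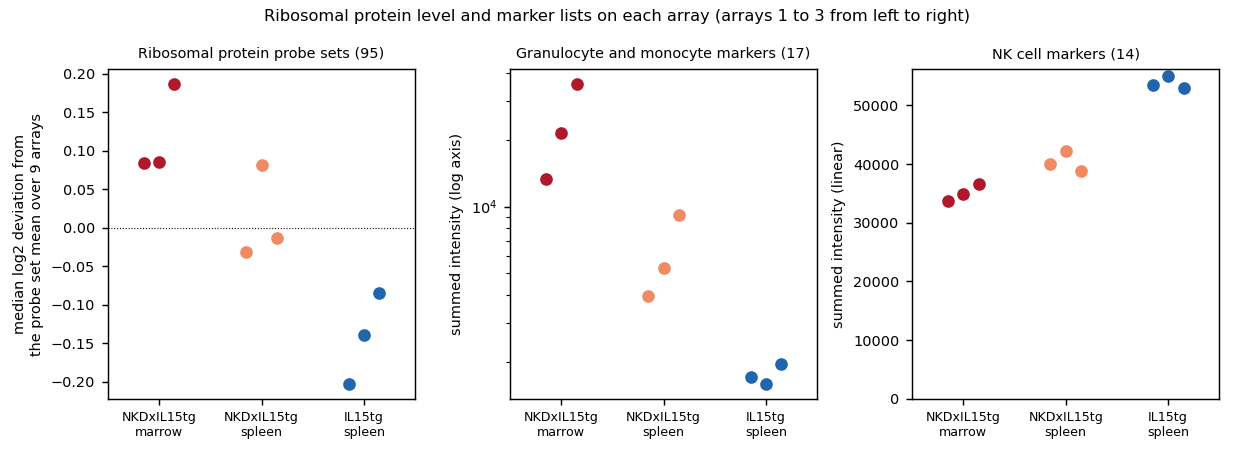
Left, median log2 deviation of the 95 tested ribosomal protein probe sets on each array; middle, summed intensity of 17 granulocyte and monocyte markers (log axis); right, summed intensity of 14 NK cell markers (linear axis). Each point is 1 of 9 arrays; the ribosomal protein median lies between -0.03 and 0.19 on the NKDxIL15tg arrays and between -0.20 and -0.09 on the IL15tg arrays.

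**Figure D2:**
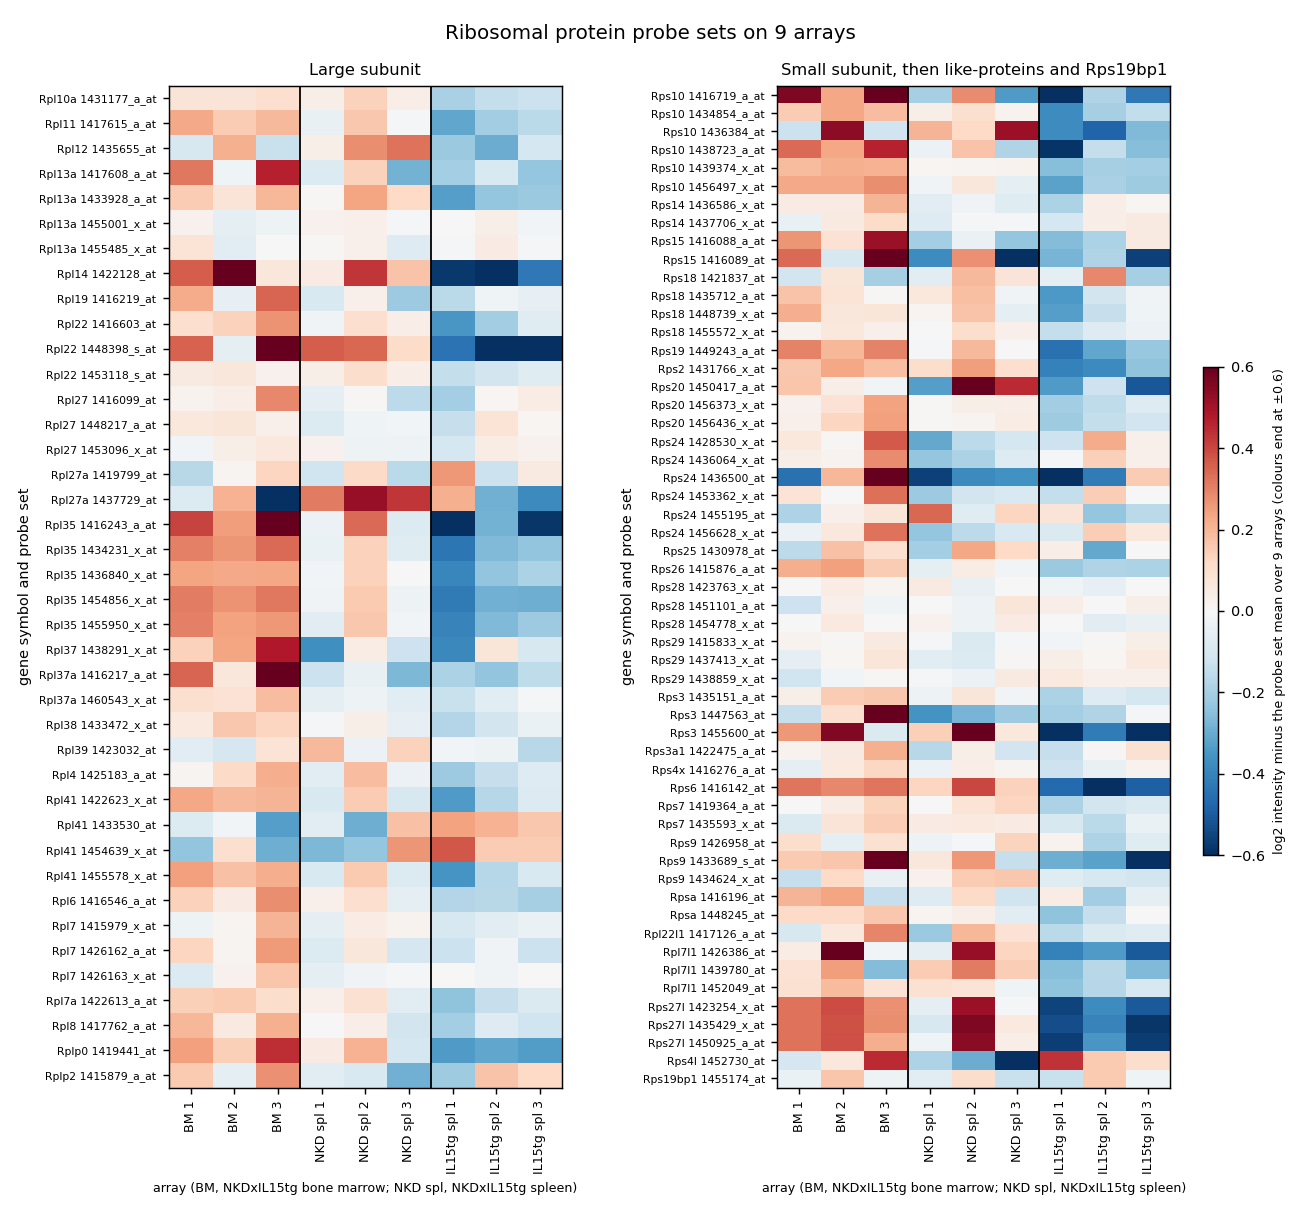
Each row is 1 of the 95 tested member probe sets and each column 1 of 9 arrays; colour gives log2 intensity minus the probe set's mean over 9 arrays, with colours ending at 0.6 in either direction. IL15tg spleen is mostly blue (low), with Rpl35, Rps10, Rps19, Rps2, Rps6 and Rps27l among the clearest rows, while Rps28 and Rps29 are near white throughout.

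NKDxIL15tg spleen against IL15tg spleen compared immature with mature cells within an organ. Of 95 members tested, 12 rose, 0 fell and 83 did not pass in limma, which is 12.6%. Over all 27022 probe sets tested, 13.8% were called in either direction, 6.75% rose and 7.04% fell. At an unadjusted p under 0.05 there were 29 members, 28 of them higher, against 27.8% of all probe sets. The 12 belong to 9 genes (Rps2, Rps3, Rps6, Rps19, Rpl13a, Rpl14, Rpl22, Rpl35 and Rps27l), and probe sets paired with 1 gene are not independent. The median change was 0.15 over the members and -0.00 over all probe sets tested. All 3 NKDxIL15tg spleen arrays lay above all 3 IL15tg arrays in 43 members and below them in 5, against 19.3% and 18.8% of all probe sets (38.1% together). With quantile normalization 7 members rose and 1 fell (8.42%, against 12.3% of all probe sets called), and with scaling to the 75th percentile 8 rose and 1 fell (9.47%, against 11.2%).

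These calls rest on few arrays. The members called were 4 (4.21%) without NKDxIL15tg spleen replicate 2, and 2, 1 and 3 (2.11%, 1.05% and 3.16%) without IL15tg spleen replicate 1, 2 and 3. Of all probe sets, 7.82% were called in the first of these fits and 6.69%, 6.71% and 7.66% in the other 3. Members called were 20 (21.1%, against 20.3% of all probe sets), with 19 risen and 1 fallen (Rps4l), when replicate 3 of NKDxIL15tg bone marrow was left out, an array that bears here on the common variance alone. Only Rps6 passed in every fit that left out 1 array. With the replicate number as a block, 9 members rose, and Rps19 (adjusted p = 0.0638), Rpl13a (0.0565) and both called probe sets of Rpl35 (0.0633 and 0.0576) no longer passed in limma.

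Of the small subunit, 4 of 46 tested probe sets rose (8.7%, against 6.75% of all probe sets risen). Counted at the brightest probe set of each gene, 3 of 19 rose (15.8%, against 7.65% of all genes risen). Rps6, the protein that S6 kinases phosphorylate below mTOR, read 542, 654 and 545 in NKDxIL15tg spleen, against 359, 319 and 353 in IL15tg spleen. The groups did not overlap, and the lowest NKDxIL15tg array stood well above the highest IL15tg array. Its mean was 579.9 ± 63.8 in NKDxIL15tg spleen and 343 ± 21.5 in IL15tg spleen (SD, n = 3 each), a log2 change of 0.75 ± 0.11 (1.68-fold, limma adjusted p = 0.0029). Its second probe set, at 22.6 to 33.1 on the 9 arrays, was too dim to be tested.

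Rps2 and Rps3 line the channel where mRNA enters the small subunit. Rps2 read 7029.9, 7766 and 7010.5 in NKDxIL15tg spleen, against 4936, 5018 and 5533 in IL15tg spleen; all NKDxIL15tg spleen arrays were higher, and it rose by 0.49 ± 0.10 (1.41-fold, limma adjusted p = 0.0125). A dim probe set of Rps3 read 153, 236 and 144 in NKDxIL15tg spleen, against 85.6, 103 and 91.2 in IL15tg spleen, and rose by 0.90 ± 0.22 (limma adjusted p = 0.0274). The bright probe set of Rps3 gave 0.13 ± 0.10 (limma adjusted p = 0.427), so the call of Rps3 was not shared by its other probe sets. Rps19, whose human gene is the one most often mutated in Diamond-Blackfan anaemia, read 4363, 5010.5 and 4392 in NKDxIL15tg spleen, against 3216, 3529 and 3743 in IL15tg spleen. These ranges did not overlap, and Rps19 rose by 0.39 ± 0.11 (limma adjusted p = 0.0426).

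Of the large subunit, 5 of 40 tested probe sets rose (12.5%, against 6.75% of all probe sets risen). Counted at the brightest probe set of each gene, 1 of 22 rose (4.55%, against 7.65% of all genes risen). Rpl14 has 1 probe set, which is dim. It read 199, 259 and 216 in NKDxIL15tg spleen, against 129, 116 and 143 in IL15tg spleen, and rose by 0.79 ± 0.17 (1.73-fold, limma adjusted p = 0.0160). Rpl35 sits at the rim of the exit tunnel, where the new chain leaves the ribosome. Its probe set in the plot of values by array read 3288, 3717 and 3268 in NKDxIL15tg spleen, against 2487, 2727 and 2717 in IL15tg spleen, and rose by 0.37 ± 0.10 (limma adjusted p = 0.0394). A second one rose by 0.59 ± 0.17 (limma adjusted p = 0.0488), and the other 3 tested gave 0.31 to 0.32 without passing. All 5 lay wholly above the IL15tg arrays.

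Rpl22 is dispensable for most translation in mice but needed for the development of αβ T cells. Its dimmest probe set read 214, 211 and 179 in NKDxIL15tg spleen, against 122, 103 and 103 in IL15tg spleen, and rose by 0.88 ± 0.19 (1.84-fold, limma adjusted p = 0.0158). Both brighter probe sets of Rpl22 gave smaller values that did not pass (0.25 ± 0.11 and 0.17 ± 0.09), with no overlap between the groups either. Rpl13a, which in human monocytes also leaves the ribosome to silence inflammatory mRNAs, rose in 1 of 4 probe sets, by 0.38 ± 0.10 (limma adjusted p = 0.0395). The other 3 gave -0.02 to 0.10.

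The like-proteins are paralogues of core proteins. All 3 probe sets of Rps27l, a paralogue of Rps27 that is a p53 target in human cells, rose by 0.63 to 0.68 (limma adjusted p = 0.0227 to 0.0290). One of them read 1248, 1853 and 1308 in NKDxIL15tg spleen, against 859, 997 and 856 in IL15tg spleen, with replicate 2 the highest. The 3 probe sets of Rpl7l1, the paralogue of Rpl7, gave 0.22 to 0.61 and did not pass, although all NKDxIL15tg spleen arrays lay above the IL15tg arrays. Rpl22l1, the paralogue of Rpl22, gave 0.13 ± 0.14. Rps4l read 53.7, 49.6 and 39.6 in NKDxIL15tg spleen, against 82.5, 68.2 and 65.6 in IL15tg spleen, the only like-protein tested with all its NKDxIL15tg spleen arrays below. Its change of -0.60 ± 0.18 did not pass (limma adjusted p = 0.0552), but did without NKDxIL15tg bone marrow replicate 3 (0.0166). Rps19bp1, a binding partner of Rps19 that the choice by symbol takes in, gave -0.03 ± 0.12.

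**Figure D3:**
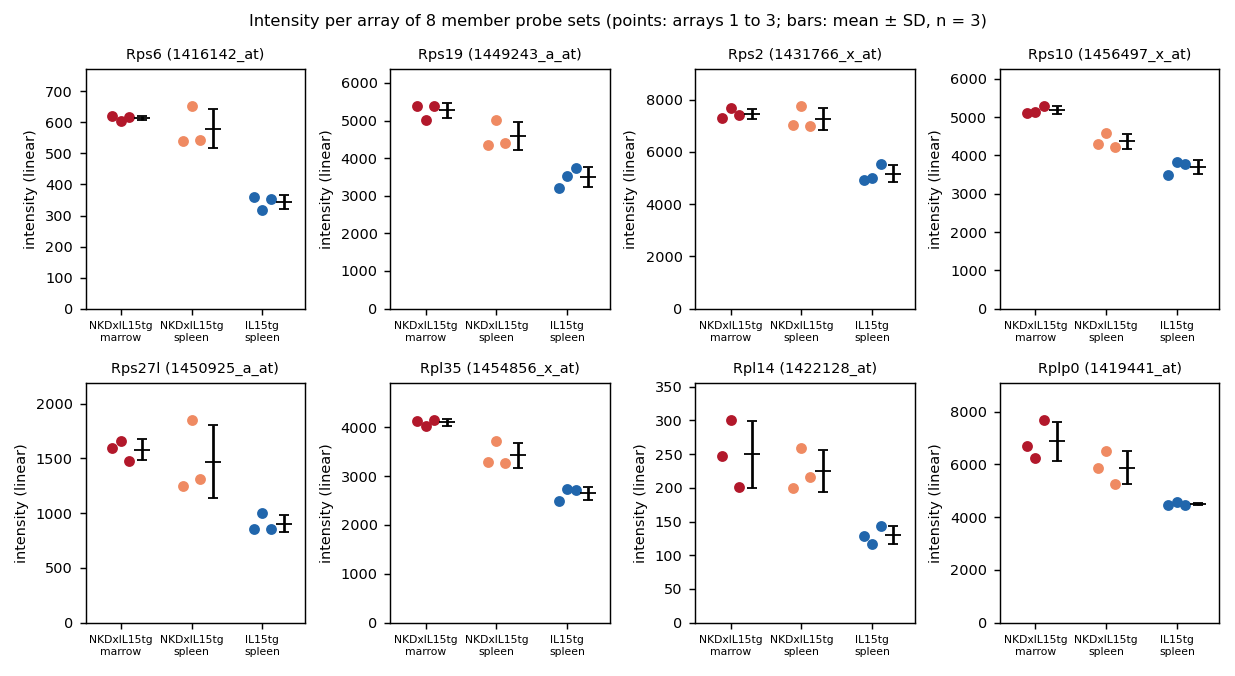
Intensity (linear axis from 0) of 8 member probe sets on the 9 arrays; points are replicates 1 to 3 and bars give the mean ± SD (n = 3). Rps6 reads 606 to 619 in NKDxIL15tg bone marrow, 542 to 654 in NKDxIL15tg spleen and 319 to 359 in IL15tg spleen, and the other 7 also have their lowest group in IL15tg spleen.

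NKDxIL15tg bone marrow against IL15tg spleen gave more calls. Of the 95 members, 29 rose, 0 fell and 66 did not pass in limma, which is 30.5%, against 21.3% of all probe sets called, 9.79% risen and 11.5% fallen. At an unadjusted p under 0.05 there were 47 members, 46 of them higher, against 35.8% of all probe sets. The 29 cover 17 genes. The median change was 0.25 over the members and 0.08 over all probe sets. All 3 bone marrow arrays lay above all IL15tg arrays in 55 members and below them in 3, against 22.5% and 20.4% of all probe sets (42.9% together). With quantile normalization 19 members rose and 0 fell (20.0%, against 21.1% of all probe sets called in either direction). After scaling to the 75th percentile 17 rose and 0 fell (17.9%, against 19.1% called in either direction). Under both, the members' share was no higher than that of all probe sets called in either direction. The share of all probe sets risen alone is not given for these fits. Without bone marrow replicate 3 the members called were again 29, of which 27 were among those 29, and without IL15tg spleen replicate 1 they were 16 (16.8%, against 11.4% of all probe sets). Both comparisons with IL15tg spleen use the same 3 control arrays.

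**Figure D4:**
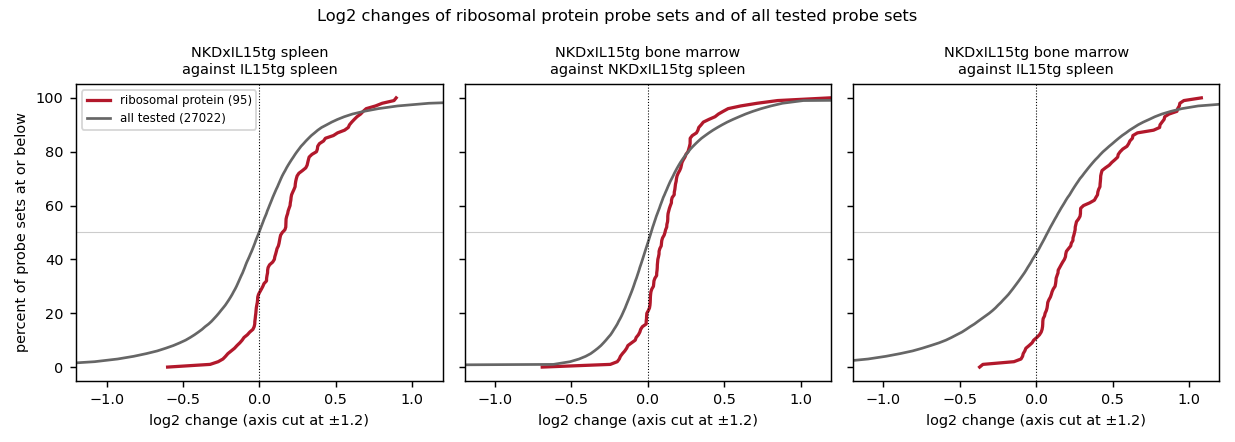
Percent of probe sets at or below each log2 change, for the 95 ribosomal protein probe sets (red) and all 27022 tested (grey), in the 3 comparisons; the horizontal axis ends at ±1.2. The red curve crosses 50% at 0.15, 0.11 and 0.25, and the grey curve at -0.00, 0.02 and 0.08.

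In the large subunit 15 of 40 tested probe sets rose in bone marrow (37.5%, against 9.79% of all probe sets risen). All 5 tested probe sets of Rpl35 rose, by 0.50 to 0.96, and the probe set given above read 4127, 4017 and 4151 in NKDxIL15tg bone marrow, against 2487, 2727 and 2717 in IL15tg spleen (0.63 ± 0.10, 1.55-fold, limma adjusted p = 0.00274). Rpl14 read 248, 301 and 202 in NKDxIL15tg bone marrow, against 129, 116 and 143 in IL15tg spleen, and rose by 0.94 ± 0.17 (limma adjusted p = 0.00534). Rpl22 rose in 2 of 3 probe sets, by 0.94 ± 0.19 and 0.38 ± 0.11. Rpl13a again rose in 1 of 4 (0.40 ± 0.10). Rpl37a, a small zinc-binding protein, read 4404, 3626 and 5263 in NKDxIL15tg bone marrow, against 3029.7, 2934 and 3114 in IL15tg spleen, and rose by 0.53 ± 0.14 in that probe set only. Rpl6 rose by 0.34 ± 0.10 (limma adjusted p = 0.0460), a call that was lost without bone marrow replicate 3 (adjusted p = 0.0948).

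Rplp0 is the base of the stalk that recruits the translation factors. It read 6701, 6233 and 7693 in NKDxIL15tg bone marrow, against 4469, 4558 and 4476 in IL15tg spleen, and rose by 0.61 ± 0.12 (1.52-fold, limma adjusted p = 0.00825). In NKDxIL15tg spleen it read 5849, 6521 and 5259, a change of 0.38 ± 0.12 that did not pass (limma adjusted p = 0.0708). Rplp2, one of the acidic proteins that Rplp0 carries, gave 0.10 ± 0.14 in bone marrow and -0.18 ± 0.14 in NKDxIL15tg spleen. Rpl12, which binds at the foot of the stalk, gave 0.20 ± 0.13 and 0.42 ± 0.13, with neither passing. Rpl11, which with Rpl5 and the 5S RNA can bind Mdm2 and so stabilise p53, read 5104, 4833 and 4977 in NKDxIL15tg bone marrow, against 3513, 3766 and 3892 in IL15tg spleen, and rose by 0.42 ± 0.10 (limma adjusted p = 0.0196).

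In the small subunit 11 of 46 tested probe sets rose in bone marrow (23.9%, against 9.79% of all probe sets risen). Rps6 read 619, 606 and 619 in NKDxIL15tg bone marrow, against 359, 319 and 353 in IL15tg spleen, a change of 0.84 ± 0.11 (1.79-fold, limma adjusted p = 0.00114). It passed under each of the alternatives run in both comparisons with IL15tg spleen. Rps10, at the head of the subunit, rose in 5 of 6 tested probe sets, by 0.42 to 0.92. The one of them in the plot of values by array read 5114, 5122 and 5296 in NKDxIL15tg bone marrow, against 3493, 3823 and 3768 in IL15tg spleen (0.49 ± 0.09, limma adjusted p = 0.00725). Rps19 read 5392, 5026 and 5385 in NKDxIL15tg bone marrow, against 3216, 3529 and 3743 in IL15tg spleen, and rose by 0.59 ± 0.11 (1.51-fold, limma adjusted p = 0.00551). Rps2 rose by 0.53 ± 0.10, Rps26, at the mRNA exit, by 0.40 ± 0.09, and the dim probe set of Rps3 by 0.81 ± 0.22. Rps9, beside the mRNA entry, rose in 1 of 3 probe sets, by 0.84 ± 0.21. That probe set read 3049.7, 3077 and 4916 in NKDxIL15tg bone marrow, against 2234, 2193 and 1635 in IL15tg spleen, and without bone marrow replicate 3 it gave 0.61 (limma adjusted p = 0.0259).

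Among the like-proteins the 3 probe sets of Rps27l rose, by 0.81 to 0.83, with values of 1596, 1664 and 1477 in NKDxIL15tg bone marrow for the one given above. No other like-protein passed, and the 3 probe sets of Rpl7l1 gave 0.26 to 0.63. Rpsa is also known as the laminin receptor, and mutations of its human gene cause congenital absence of the spleen. Its bright probe set read 8934, 8928 and 9244 in NKDxIL15tg bone marrow, 8344, 8498 and 7874 in NKDxIL15tg spleen, and 6974, 7508 and 8272 in IL15tg spleen. Its changes against IL15tg spleen, 0.26 ± 0.10 for bone marrow and 0.12 ± 0.10 for NKDxIL15tg spleen, did not pass.

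Of 9 tested genes that cause Diamond-Blackfan anaemia in humans, taken at their brightest probe set, 4 rose in NKDxIL15tg bone marrow (Rpl11, Rps10, Rps19 and Rps26) and 1 in NKDxIL15tg spleen (Rps19), against 11.5% and 7.65% of 12925 genes. By brightness, 24 of 68 members with a mean intensity of at least 1000 rose in bone marrow (35.3%), against 17.6% of 1694 probe sets as bright. In NKDxIL15tg spleen 7 of the 68 rose (10.3%), against 11% of those probe sets.

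NKDxIL15tg bone marrow against NKDxIL15tg spleen compared the immature cells of both organs. In limma 0 of the 95 members passed, against 0.0518% of all probe sets, 0.0111% risen and 0.0407% fallen. At an unadjusted p under 0.05 there were 14 (14.7%), 13 of them higher in bone marrow, against 10.4% of all probe sets. The median change was 0.11 over the members and 0.02 over all probe sets. All bone marrow arrays lay above all NKDxIL15tg spleen arrays in 31 members and below them in 1, against 9.77% and 6.31% of all probe sets (16.1% together). Scaling to the 75th percentile lowered the members' median to 0.03 and that of all probe sets to -0.06.

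Values between the organs differed from member to member. Rpl35 gave 0.19 to 0.37 and the 5 bright probe sets of Rps10 gave 0.14 to 0.59, with adjusted p in limma of 0.442 or above. Rps6 gave 0.09 ± 0.11, and Rps2 0.04 ± 0.10. Rps24, which ends in alternative exons and so has several isoforms, read 4584, 4537 and 5446 in NKDxIL15tg bone marrow, 3809, 3929 and 4249 in NKDxIL15tg spleen, and 4445, 4938 and 4565 in IL15tg spleen in its brightest probe set. NKDxIL15tg spleen was thus the lowest group, below both others without overlap. The change was 0.28 ± 0.11 for bone marrow against NKDxIL15tg spleen and -0.22 ± 0.11 for NKDxIL15tg spleen against IL15tg spleen, and neither passed. The other 3 bright probe sets of Rps24 gave 0.28 to 0.34 and -0.23 to -0.14.

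Some probe sets were far higher on bone marrow replicate 3 than on the other arrays. A dim one of Rps24 read 73.8, 116 and 579.5 in NKDxIL15tg bone marrow, against 68.4, 77.4 and 78.4 in NKDxIL15tg spleen, and its change of 1.19 ± 0.63 was 0.31 without that array. A dim probe set of Rps3 read 67.6, 79.5 and 183 in NKDxIL15tg bone marrow, and none of the other 6 arrays was above 73.9. One of Rps15 read 923, 682 and 2078 in NKDxIL15tg bone marrow, against 561, 882 and 472 in NKDxIL15tg spleen. None of these passed.

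Probe sets of 1 gene disagreed most for Rps3, Rpl22, Rpl27a, Rpl41 and Rps24 in NKDxIL15tg spleen against IL15tg spleen, for Rps24, Rpl41, Rpl22, Rps9 and Rps3 in bone marrow against IL15tg spleen, and for Rps24, Rps3, Rps10, Rpl27a and Rps9 between the organs. Rpl41 is a very short peptide at the junction of the subunits. Both bright probe sets rose in bone marrow (0.41 ± 0.11 and 0.42 ± 0.11), the brighter of them at 8062, 7665 and 7889 in NKDxIL15tg bone marrow, against 5314, 6033 and 6368 in IL15tg spleen. A dimmer one read 710.3, 744 and 599.8 in NKDxIL15tg bone marrow, against 890.4, 871 and 842 in IL15tg spleen, so it lay the other way without overlap (-0.35 ± 0.14, limma adjusted p = 0.112), and the dimmest gave -0.37 ± 0.17. For Rpl27a, 1 probe set read 268, 328 and 148 in NKDxIL15tg bone marrow, 352, 408 and 382 in NKDxIL15tg spleen, and 329, 233 and 218 in IL15tg spleen, while the other gave changes of -0.12 to 0.05 in the 3 comparisons. Of all members, 71 have IDs ending in _a_at, _s_at or _x_at, Affymetrix's marks for probes that may match several transcripts. Among the 27 tested members without such a mark, 3 rose in NKDxIL15tg spleen (11.1%) and 5 in bone marrow (18.5%) against IL15tg spleen. No unmarked member fell in these comparisons. Of all unmarked probe sets, 13.5% and 20.6% were called, which counts both directions, and the share risen alone is not given here.

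**Figure D5:**
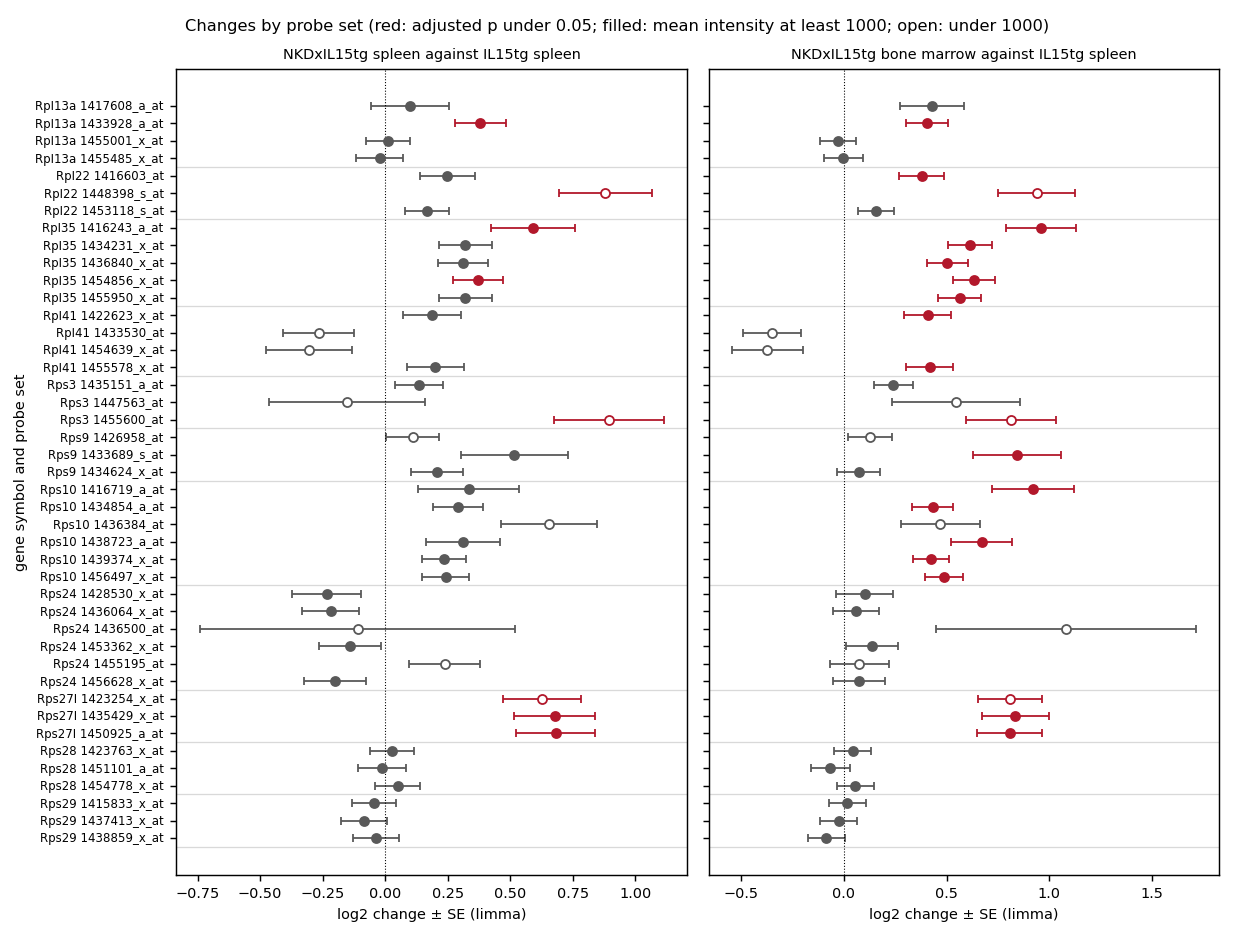
Log2 change ± SE of each tested probe set of 11 genes in NKDxIL15tg spleen (left) and NKDxIL15tg bone marrow (right) against IL15tg spleen; red marks an adjusted p under 0.05, and filled points a mean intensity of at least 1000. Rpl35, Rps10 and Rps27l have probe sets that lie together on 1 side, Rpl41 has probe sets on both sides, and Rps28 and Rps29 lie near 0.

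The 6 probe sets of Rps28 and Rps29 had some of the smallest differences. They read 6656 to 9602 on all arrays, where the highest signal of any probe set was 12927 to 14011, and their changes lay between -0.08 and 0.06 in all 3 comparisons with an SE of 0.09. The 11 members not tested read 20.1 to 52.8. They are the only probe sets of Rpl39l, Rpl3l, Rps16 and Rps27, so these 4 genes have no test here, and 1 or 2 further probe sets each of Rpl35, Rpl37a, Rps4x, Rps6, Rps18 and Rps20. RefSeq lists 89 protein-coding symbols of this form, and 49 of them have a member. Rpl5, Rplp1, Rps27a, Rpl10l and Rpl36al have none. A further 110 probe sets list a ribosomal protein among several symbols. Of the 104 of these that were tested, 15 rose and 0 fell in bone marrow against IL15tg spleen (14.4%, against 9.79% of all probe sets risen). In NKDxIL15tg spleen against IL15tg spleen 4 rose and 0 fell (3.85%, against 6.75%).

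Genes that build and serve the ribosome were counted at their brightest probe set, against 7.65% of genes risen and 4.87% fallen in NKDxIL15tg spleen and 11.5% and 8.7% in bone marrow, both against IL15tg spleen. Of 66 ribosome assembly factors, 5 rose and 0 fell in NKDxIL15tg spleen, among them Pno1 (0.93 ± 0.26), which matures the small subunit, and Rsl24d1 (0.79 ± 0.21), which acts on the large one in yeast. In bone marrow 15 rose and 0 fell, with Pno1 (0.92 ± 0.26) and Nhp2 (0.90 ± 0.20), a protein of the particles that modify ribosomal RNA, ahead. Of 31 genes of RNA polymerases I and III, Polr1c (0.66 ± 0.11) and Polr1d (0.57 ± 0.12), which both enzymes share, rose in NKDxIL15tg spleen and 0 fell. In bone marrow 5 rose, including Gtf3a (0.75 ± 0.19), the factor of 5S RNA genes, and Polr2f (0.65 ± 0.13), and 1 fell, Bdp1 (-0.69 ± 0.15), part of the initiation factor of polymerase III.

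Translation factors moved in both directions. Of 36 initiation factors, 3 rose and 2 fell in NKDxIL15tg spleen. The helicase gene Eif4a1 (1.13 ± 0.20) and Eif1ax (0.78 ± 0.15), a factor of start site scanning, rose, while the scaffold gene Eif4g3 (-0.62 ± 0.16) and Eif5 (-0.47 ± 0.10), which triggers GTP hydrolysis at the start codon, fell. In bone marrow 9 rose and 1 fell, with Eif4a1 (0.96 ± 0.20), Eif4e (0.76 ± 0.12), the cap-binding protein, and Eif5 (-0.41 ± 0.10) among them. Of 9 genes of elongation factors and related proteins, Eef1e1 (0.89 ± 0.16) and Eif5a (0.86 ± 0.18) rose in NKDxIL15tg spleen. Eef2k (-0.84 ± 0.16), the kinase that inhibits Eef2, fell there. In bone marrow Eif5a rose (0.82 ± 0.18) and Eef2k fell (-0.75 ± 0.16).

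Of 20 genes of the Myc and mTOR pathways, Myc rose in both comparisons (0.81 ± 0.17 in NKDxIL15tg spleen and 0.82 ± 0.17 in bone marrow). Mxd1, an antagonist of Myc, fell by 1.48 ± 0.17 and 1.49 ± 0.17, and Tsc1, an inhibitor of mTOR complex 1, fell by 0.44 ± 0.11 in NKDxIL15tg spleen. In bone marrow Rptor, a subunit of that complex, rose (0.74 ± 0.18) and Mga, a partner of Max, fell (-0.46 ± 0.14). That made 1 risen (5%) and 2 fallen in NKDxIL15tg spleen, against 7.65% of genes risen and 4.87% fallen. In bone marrow it made 3 risen (15%) and 2 fallen, against 11.5% and 8.7%. Of 23 cell division genes, 20 rose in NKDxIL15tg spleen (87%, against 7.65% of genes risen) and 22 in bone marrow (95.7%, against 11.5%). In bone marrow against NKDxIL15tg spleen 0 genes of these lists passed in limma, against 0.0232% of genes risen and 0.0464% fallen.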

How the data were processed

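The 9 samples are total RNA from sorted NK cells, extracted with Trizol, per the labels' protocols. Of each, 150 ng was amplified in 2 rounds by a 3′ kit and labelled with biotin, a step that favours probes near the 3′ end of a transcript. What the authors deposited is a linear intensity for each probe set on each array. The sources used here do not state how probes were summarised or arrays scaled. No column was left unused.

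Array medians differed by 0.20 log2, under the limit of 0.3, so values were not rescaled. Intensities under 16 (4.35%) were set to 16 and log2 was taken. The 64 control probe sets were left out, and probe sets whose mean reached the 40th percentile were tested (27022). The groups' means on all 9 arrays were modelled together (limma 3.58.1, R 4.3.3), tested 2-sided and adjusted by Benjamini-Hochberg over all tested probe sets. The steps were tested on simulated data. The number of arrays limits the precision, and an exact test of 3 against 3 cannot give a p below 0.1. The labels call the replicates biological and do not tie them to single animals.

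Same-numbered arrays deviated together in every pair of both comparisons with NKDxIL15tg spleen. The correlations were 0.12 to 0.16 against IL15tg spleen and 0.23 to 0.38 for bone marrow. For bone marrow against IL15tg spleen they were 0.17, -0.02 and 0.24. Arrays of different numbers were not compared in this way, and the labels do not state a pairing. The fit reported has no pairing, and the replicate number was a block in an alternative only. No pair of arrays shared over 0.00887% of its values.

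Members, gene lists and tests were chosen with earlier results of these data known. Genes are named if a probe set of theirs was called (at most the 15 largest a direction). Others were listed for their role and are named whatever their result. Further ones are among the 5 genes whose probe sets disagree most, or the 2 largest calls a direction in each pathway list. Gene symbols are those of the platform annotation, and all 50 of them matched RefSeq. Alternatives were quantile normalization, scaling to the 75th percentile, no filter, a floor of 64, array weights, a replicate block, only the arrays compared, the brightest probe set of a gene, no _x_at, _s_at and _a_at probe sets, and each array left out.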

Additional observations from a re-analysis of the deposited data

How the results depend on the processing

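The members' median change stayed above that of all probe sets in every alternative run and in all 3 comparisons. No member called in the limma fit changed sign, while 21 of 83, 34 of 95 and 25 of 66 uncalled ones did in at least one alternative (NKDxIL15tg spleen against IL15tg spleen, bone marrow against NKDxIL15tg spleen, bone marrow against IL15tg spleen). Every fit that left out 1 array kept 16 of the 29 calls of bone marrow and 1 of the 12 of NKDxIL15tg spleen, both against IL15tg spleen. The cause of the changes below was not tested, apart from the fewer arrays, probe sets or tests that an alternative implies.

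For NKDxIL15tg spleen against IL15tg spleen, members called were 12 in the fit reported (12.6%, against 13.8% of all probe sets called). They were 19 with the 6 arrays compared alone (20%, against 19.2%), and 5 at the brightest probe set of a gene (10.9%, against 12.3%). Without _x_at, _s_at and _a_at probe sets they were 3 (11.1%, against 13.5%). With 1 array left out they were 1 to 20 (1.05% to 21.1%, against 6.69% to 20.3%). All probe sets called were 3725, 2102 with a floor of 64, 5685 with array weights, 1592 at the brightest probe set, and 1809 to 5483 with 1 array left out. For bone marrow against IL15tg spleen, members called were 29 (30.5%, against 21.3% of all probe sets called in either direction). After scaling to the 75th percentile they were 17 (17.9%, against 19.1% in either direction). They were 19 with quantile normalization (20.0%, against 21.1% in either direction). They were 12 at the brightest probe set (26.1%, against 20%) and 5 without the marked probe sets (18.5%, against 20.6%). With 1 array left out they were 16 to 29 (16.8% to 30.5%, against 11.4% to 23.5%). All probe sets called were 5764, 3466 with a floor of 64, 2588 at the brightest probe set, and 3089 to 6342 with 1 array left out. The members' median was 0.25 and 0.13 with quantile normalization. For bone marrow against NKDxIL15tg spleen, 0 members were called in all alternatives, and the members' median of 0.11 was 0.0362 with quantile normalization and 0.0285 after scaling to the 75th percentile. All probe sets called there were 14, then 2 with no filter, 5 with a floor of 64, 8 without the marked probe sets, and 1 to 15 with 1 array left out (1 without NKDxIL15tg spleen replicate 1, 4 without its replicate 3 or without bone marrow replicate 2).

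With the replicate block, members called against IL15tg spleen were 9 of 95 in NKDxIL15tg spleen (9.47%, against 14% of all probe sets called). In bone marrow they were 30 (31.6%, against 22%). Between the organs 0 were called, where all probe sets called were 23. In bone marrow against IL15tg spleen, where same-numbered arrays did not all deviate together, Rpl6 was the call lost (adjusted p = 0.0725 in limma). Members near the filter on dim probe sets are limited by signal over background: 11 were not tested.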
